A study of Mus musculus with 2 samples.

Results

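Esr1 encodes oestrogen receptor alpha, the nuclear receptor through which oestradiol acts in the uterus, and 16 of the 26584 m6A peaks deposited for the mouse uterus on gestational day 4 had their summit in its gene. The gene was taken as its RefSeq span on GRCm38.p6, the assembly of the mm10 build of the peaks, at chromosome 10, 4611989 to 5005633, which is 393.645 kb long and runs on the plus strand. All 16 summits lay in the span of Esr1 and of no other gene. Uteri came from wild-type females mated at 6 to 8 weeks of age, with the day of the vaginal plug counted as day 1, and tissue of mixed cell type was taken on day 4. In methylated RNA immunoprecipitation sequencing, fragments of polyA RNA bound by an antibody against N6-methyladenosine (m6A) are sequenced beside unselected fragments. The labels give 1 immunoprecipitated (IP) sample, the 1 with peaks used here, and 1 input sample made without antibody. How many animals went into each is not given in the sources used here. There was no replicate of either sample, so no p-value or spread between animals can be given, and every value describes this peak list.

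Every peak is named after a run called D8NegIP-Posinput, and its D8 is at odds with the labelled day 4. The name also sets Neg before IP and Pos before input, and the labels explain neither word. Groups were taken from the labels, and neither the day of these peaks nor whether the labelled input served as their background is settled. The tissue label was set against marker genes by the presence of a peak. Peaks were found in 10 of 10 stromal, 8 of 8 smooth muscle, 9 of 10 epithelial and 7 of 8 endothelial markers. They were found in 4 of 10 leukocyte, 1 of 10 ovary and oviduct and 2 of 8 preimplantation embryo markers. Of all 21900 protein-coding genes, 44.8% had a peak. The presence of a peak is not a measure of expression, as an expressed mRNA can lack m6A or depth. These counts therefore do not show which cell types were present. A bulk peak list cannot tell fewer cells of a type from less RNA per cell, so none of the Esr1 values below can be placed in a cell type.

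Oestrogen receptor alpha is held by heat shock protein chaperones until it binds oestradiol, then binds DNA as a dimer and recruits coactivators or corepressors. It mediates the growth of the uterine epithelium under oestrogen, induces the progesterone receptor gene Pgr, and is needed for the uterus to receive an embryo. m6A is laid on nascent transcripts by the METTL3 and METTL14 complex, is read by YTH domain proteins, and often affects how long an mRNA lasts. It is typically dense in long internal exons and around the stop codon.

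RefSeq lists 2 start windows for Esr1, each covering 250 bases before and 50 after a transcription start, and they are shown because a peak lay on 1 of them and not on the other. The first start, at position 4611989, is the low-coordinate end of the span. The second, at 4710158, lies 98.2 kb further along. Both are written 5′ to 3′ on the plus strand of GRCm38.p6, in lower case, with the bases covered by a peak in capitals.
First Esr1 start, chr10:4611739-4612038: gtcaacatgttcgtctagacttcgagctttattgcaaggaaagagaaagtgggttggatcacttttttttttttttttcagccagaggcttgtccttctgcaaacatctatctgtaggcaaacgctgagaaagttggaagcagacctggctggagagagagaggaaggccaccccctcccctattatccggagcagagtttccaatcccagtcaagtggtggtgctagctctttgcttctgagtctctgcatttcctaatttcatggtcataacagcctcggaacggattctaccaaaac
Second Esr1 start, chr10:4709908-4710207: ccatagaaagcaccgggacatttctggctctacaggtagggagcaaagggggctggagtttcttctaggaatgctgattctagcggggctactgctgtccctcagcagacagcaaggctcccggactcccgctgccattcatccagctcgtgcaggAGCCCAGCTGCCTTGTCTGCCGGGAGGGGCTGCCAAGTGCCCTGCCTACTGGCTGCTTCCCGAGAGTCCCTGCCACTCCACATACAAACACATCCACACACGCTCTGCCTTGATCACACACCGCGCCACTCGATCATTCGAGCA

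No peak touched the first window, and the nearest summit was 98.2 kb away. The most 5′ of the 16 peaks, at chr10:4710064-4710425, covered 144 bases of the second window, of which 94 lay before the listed start and the rest after it. Its summit was 80 bases after that start. No Esr1 peak had its summit before the second start. A summit within 500 bp of a listed start was found in 19.8% of the 481 protein-coding genes of like span (0.5 to 2 times that of Esr1) that have a peak and a listed strand, and in 20.4% of all 7834 such genes.

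The letters GGAC, the core of the m6A consensus, were found at -235 and -128 from the second start on the sense strand, and at -154 and -29 on the antisense strand, counted at the lowest coordinate of each match. The longer form GGACT matched at -128 on the sense strand and at -30 on the antisense strand, overlapping GGAC at both sites. Neither sense match lay in the capital letters, and the antisense matches at -29 and -30 did. The first window held GGAC only on the antisense strand, at -159, and no GGACT. Over all 32851 RefSeq start windows, GGAC was present on the sense strand in 65.6% and on either strand in 87.7%, and GGACT in 26.1% and 45.5%. The second window ends before the summit of its peak, so most of that peak, its summit included, was not searched for these letters. Sequence under the other peaks was not analysed here.

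Of the 16 peaks, 13 lay in the 3′ part of the gene and 3 at or within 36.5 kb of the second start (plot of fold enrichment along the span). Cut into 5 equal sections from the 5′ end, the Esr1 span had 0, 3, 0, 8 and 5 peaks. The last 2 sections thus held 81.25% of its peaks, with 39.3% and 40.6% of the summed pileup. In the 480 other protein-coding genes of like span, the shares per section were 16.8%, 13.0%, 10.4%, 15.3% and 44.4% of 1925 peaks. Esr1 had 50% of its peaks in section 4, against 15.3% in those genes, and 31.25% in section 5, against 44.4%. These are 16 peaks of a single gene, and the difference was not tested. The longest stretch without a summit inside the gene, apart from the first 98.2 kb, ran for 130.4 kb between the third and the fourth peak.

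**Figure D1:**
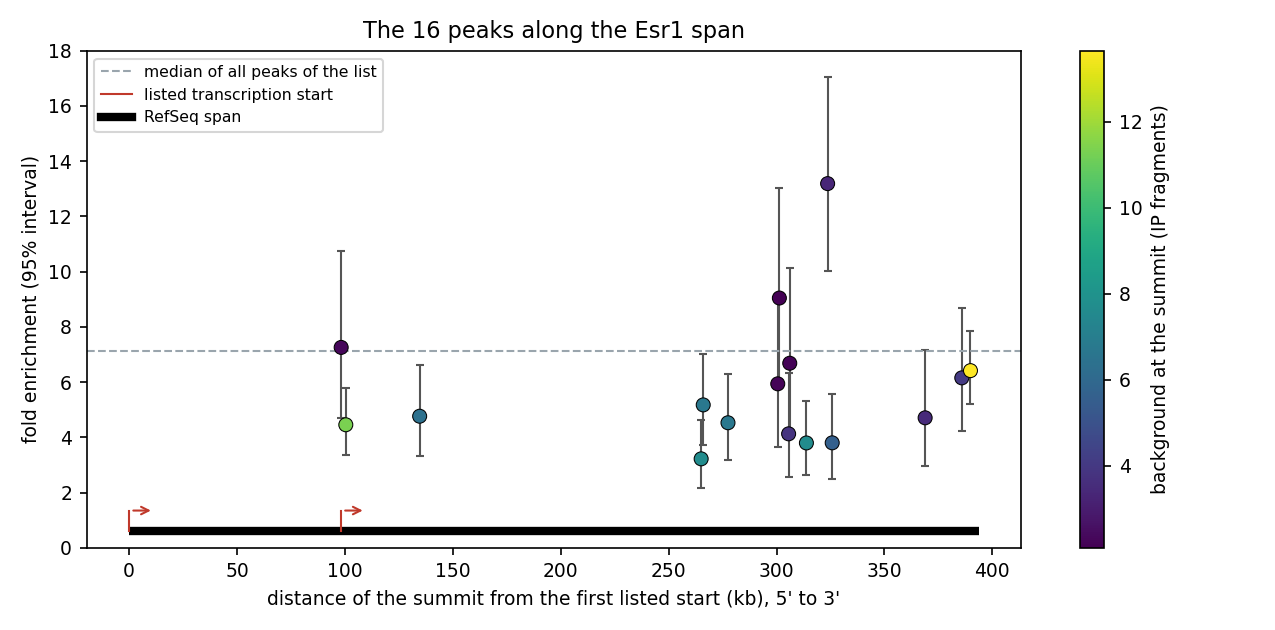
Fold enrichment of the 16 Esr1 peaks (points, bars are 95% Poisson intervals of the IP pileup) against the distance of the summit from the first listed start in kb. Colour gives the background at the summit, red arrows the 2 listed starts and the dashed line the median of all peaks, 7.14. The strongest peak, at 13.2, stands 323.7 kb from the first start, and the peak with the highest background, 13.6, lies at the 3′ end.

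Each peak has a fold enrichment given by the authors' peak caller, which is the IP pileup at the summit plus 1 over the background plus 1. From it and the deposited Poisson p-value, the pileup in whole fragments and the background, on the scale of the IP library, were recovered. Intervals in brackets are exact 95% Poisson intervals of the pileup with the background taken as known. Only counting error is in them. Whether copies of a fragment made by amplification were removed is not given in the sources used here. Any that were kept are counted as if they were separate molecules.

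At the second start, the peak described above had a fold enrichment of 7.26 (4.71 to 10.7), from 23 fragments over a background of 2.31. It was followed 2.146 kb downstream by a peak at chr10:4712205-4712785 with 4.46 (3.37 to 5.79). That second peak was deeper, with 54 fragments, but over a background of 11.3. The intervals of their fold enrichments overlap. The third peak, at chr10:4746464-4746674, stood alone 36.5 kb after the second start, with 4.77 (3.34 to 6.61) from 34 fragments over 6.34. It was 211 bp wide, close to the smallest width in the list, 200 bp.

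After the long gap came a pair whose summits were 957 bases apart. The narrow peak at chr10:4877003-4877204 had the lowest fold enrichment in the gene, 3.22 (2.16 to 4.64), from 27 fragments over 7.69. Only 0.920% of the list lay below it, with ties placed midway. The wider peak beside it, 755 bp at chr10:4877342-4878096, had 5.18 (3.72 to 7.03) from 39 fragments over 6.73. A single peak at chr10:4889150-4889647 followed at 4.53 (3.18 to 6.28), from 34 fragments over 6.73. These 3 peaks had nearly the same background and overlapping intervals.

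A run of 7 peaks, each summit under 10 kb from the next, spanned 25.2 kb across sections 4 and 5. It held both the strongest Esr1 peak and the 3 lowest after the one of 3.22. The strongest, at chr10:4935311-4936068, had 56 fragments over a background of 3.32, a fold enrichment of 13.2 (10.02 to 17.1) and a −log10 q of 44.5. Its interval lay wholly above those of 12 of the 15 other Esr1 peaks. The 3 that it overlapped were the peak at the second start and 2 others of the same run. Next came the peak at chr10:4913097-4913437 with 9.05 (6.07 to 13.0), from 27 fragments over 2.10. The peak at chr10:4917994-4918195 had 6.68 (4.21 to 10.2) from 20 fragments over 2.14. Theirs were the 2 lowest backgrounds of the gene.

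The other 4 peaks of the run were weaker. That at chr10:4912402-4912793 had 5.94 (3.65 to 9.205) from 18 fragments over 2.199, the lowest pileup of the 16. That at chr10:4917278-4917765 had 4.13 (2.57 to 6.33) from 19 fragments over 3.84. The peaks at chr10:4925677-4925881 and chr10:4937627-4937891 both rounded to 3.80, with intervals of 2.63 to 5.31 and 2.49 to 5.58, from 32 fragments over 7.69 and 24 over 5.57. The last of these stood only 2.119 kb, summit to summit, from the strongest peak, and their intervals did not overlap.

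Towards the 3′ end a single peak at chr10:4980529-4980976 had 4.71 (2.96 to 7.15) from 20 fragments over 3.46. The peak at chr10:4997685-4997898, 7.816 kb before the end of the span, had 6.15 (4.22 to 8.70) from 30 fragments over 4.04. The last peak, at chr10:5001037-5003018, was the widest of the gene at 1982 bp and the deepest, with 93 fragments. Its summit lay 3.789 kb before the end of the span. Its background was also the highest, 13.6, and the fold enrichment was 6.42 (5.19 to 7.85).

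That last peak was broad and deep within the list but ordinary in enrichment. It was number 437 by width and number 447 by pileup of 26584 peaks. A peak within 5000 bp of the 3′ end was found in 72.2% of the 7834 protein-coding genes that had a peak and a listed strand, and in 50.3% of those of like span. Among the peaks nearest the 3′ end in those 5654 genes, 2.19% were as wide or wider, 2.48% as deep or deeper, and 62.6% had as high a fold enrichment or higher. The median of those peaks was a width of 468 bp, a pileup of 23 and a fold enrichment of 7.52. Exons were not annotated in the reference used here, so whether any Esr1 peak lies in an exon, an intron or the untranslated end was not analysed.

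Ordered by fold enrichment, all 15 pairs of neighbouring Esr1 peaks had overlapping intervals, so no peak was separated from the next in that order. The 16 values ran from 3.22 through a median of 4.97 to 13.2, against a median of 7.14 over all peaks of the list. Of the Esr1 peaks, 3 of 16 were above the list's median (50% of the list) and 9 of 16 were below its lower quartile of 5.52, against 24.9% of the list. The Esr1 median itself was at percentile 15.02 of the list. Among peaks with a −log10 q of at least 5 it was at 6.24, and without the added 1 it was at 6.865. A limit of fold enrichment of at least 4, which filters on the ranked value itself, left 13 Esr1 peaks. Their median rose to 5.94, at percentile 29.0 of the peaks that passed.

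Depth ran the other way. The Esr1 pileups ran from 18 through a median of 28.5 to 93 fragments, against a list median of 18, and 15 of 16 were above that median (48.4% of the list). The backgrounds ran from 2.10 through a median of 4.81 to 13.6, against a list median of 1.42. All 16 were above the list's median background (50% of the list), and 12 of 16 were above its upper quartile of 2.69 (25.0% of the list). The Esr1 peaks therefore rest on more fragments than most, and sit where the background is high. All 16 had a −log10 q of at least 5, which 85.0% of the list reached, and 10 of 16 had at least 10, which 54.8% reached.

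**Figure D2:**
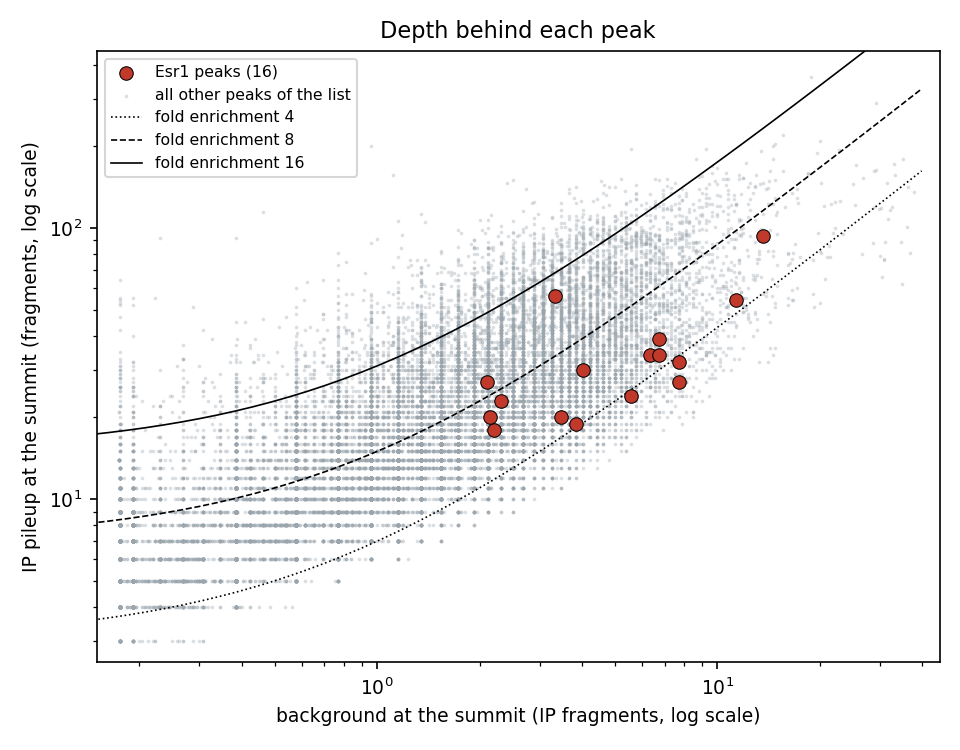
IP pileup at the summit against the background at the summit for the 16 Esr1 peaks (red) and all other peaks of the list (grey), both on log scales; lines mark fold enrichments of 4, 8 and 16. The Esr1 peaks lie at backgrounds of 2.10 to 13.6, all above the list median of 1.42, and only the peaks of 13.2 and 9.05 lie above the line at 8.

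Set against peaks of like background, Esr1 peaks were still mostly on the low side. For each one, the comparison took the peaks of the list with a background within 20% of its own. Of the 16, 13 had a lower fold enrichment than the median of those peaks, against 49.8% of the list by the same measure. The percentile among them had a median of 29.2 over the 16 peaks. The strongest peak was at percentile 84.7 of 3706 such peaks, the second strongest at 62.5 and the broad 3′ peak at 59.0 of 162. The count was also 13 with a window of 10% or 50%. This comparison was chosen after the values were seen.

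The backgrounds came in steps. Of the 16, 12 were whole multiples of 0.192 within 0.01 of a step, as were 66.6% of all peaks, from 12 steps at the second start to 71 at the broad 3′ peak. What a step is was not given. With a step taken as 1 background count and counting error on both sides, the broad peak had a ratio without the added 1 of 6.81 (4.95 to 9.41), and the peak at the second start 9.97 (4.76 to 22.0). The other 4 backgrounds stood at 10.9, 11.14, 11.44 and 17.28 steps. They belonged to 4 peaks of the run in the 3′ part, the strongest among them.

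Widths ran from 202 to 1982 bp, with a median of 377 bp in Esr1 and 322 bp in the list. Of the Esr1 peaks, 5 of 16 were under 220 bp (26.0% of the list) and 3 of 16 over 700 bp (18.1%). The 3 wide ones were the strongest peak, the broad 3′ peak and the 755 bp peak of the pair after the long gap. Together the 16 peaks covered 7904 bp, or 2.01% of the span.

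Esr1 carried many peaks for its span. Protein-coding genes with a span of 0.5 to 2 times its own numbered 911, of which 70.9% had a peak, with a median of 2 peaks over all of them. As many peaks as Esr1 or more were found in 9 of the 911, Esr1 included (0.988%), and in 43 of all 21900 protein-coding genes (0.196%). Many of those genes overlap each other and share their peaks. With only peaks in the span of exactly 1 gene, the numbers were 4 of 911 and 16 of 21900 (0.0731%). Of the 911, as many peaks as Esr1 or more were found in 2 with a −log10 q of at least 5, in 3 with a pileup of at least 10 and in 18 with a fold enrichment of at least 4. Per 100 kb of span, Esr1 had 4.06 peaks, against a median of 0.493 in the genes of like span, and was number 30 of 911. Among all 9822 protein-coding genes with a peak, the median was 6.95 and Esr1 was number 6512.

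Next above Esr1 among genes of like span were Rora, a nuclear receptor gene, with 19 peaks, Gm4724 with 17, and protocadherin alpha genes with 18 or 19. The protocadherins Pcdha2, Pcdha3 and Pcdha4 share most of their span and so their peaks. Tshz2, a zinc finger gene, had 16 as well. Next below were Macf1, a cytoskeletal linker gene, and Pcdha5 with 15. Mylk, the smooth muscle myosin light chain kinase gene, and Svil, which encodes supervillin, had 14. Syne2, a nuclear envelope protein gene, had 14 as well.

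**Figure D3:**
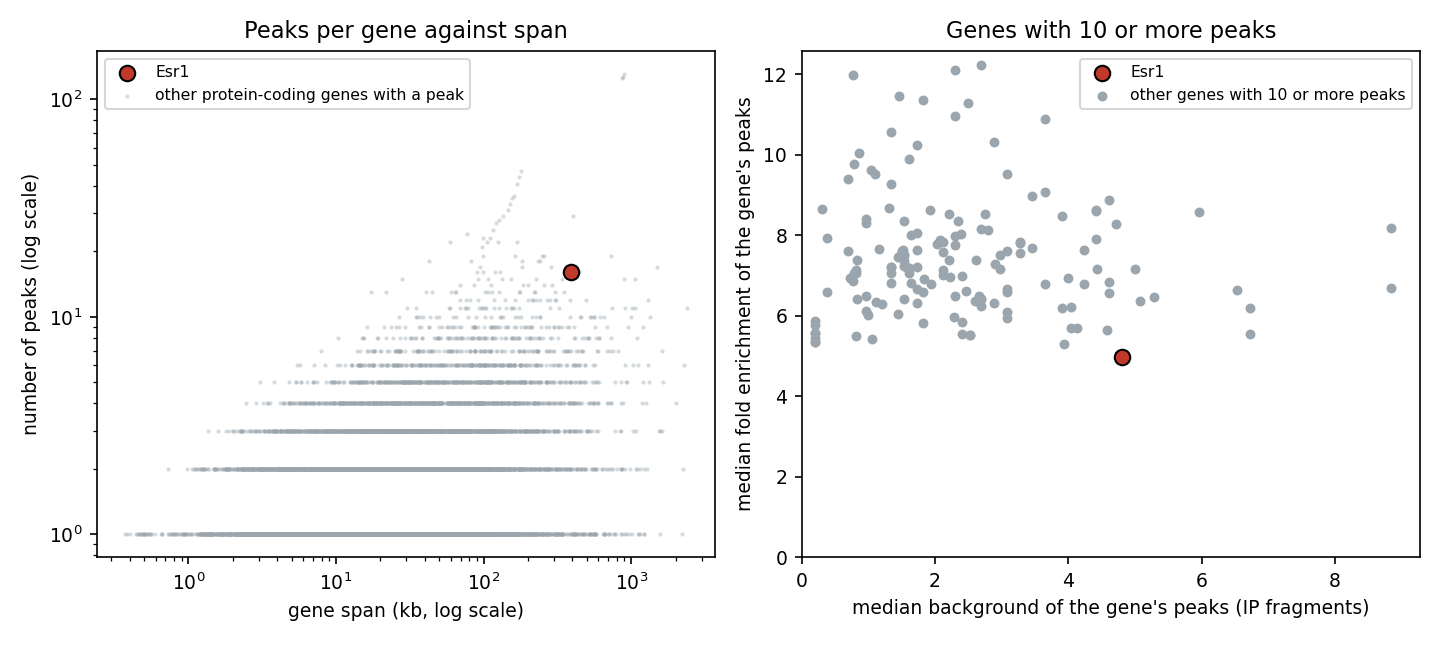
Left, the number of peaks against the gene span in kb for Esr1 (red) and other protein-coding genes with a peak (grey), both on log scales. Right, the median fold enrichment against the median background over each gene's peaks for Esr1 (red) and the other genes with 10 or more peaks (grey). Esr1 has 16 peaks, and its median fold enrichment of 4.97 is the lowest of the 157 genes on the right.

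Esr1 combined a low median enrichment with a high median background. Among the 157 protein-coding genes with 10 or more peaks, its median fold enrichment of 4.97 was the lowest, next to Sema5a, a semaphorin gene, at 5.30, and a median of 7.21 over these genes. It kept that place with a −log10 q of at least 5, among 126 genes, and with a pileup of at least 10, among 127. The same held with peaks in exactly 1 gene, among 105, and without the added 1, among 157. With only peaks of fold enrichment of at least 4 it was number 14 from the lowest of 143. Its median background of 4.81 was the tenth highest (6.37% of the 157 at or above it). Among the higher ones was Myh11, a smooth muscle myosin gene, at 8.84. Measured against peaks of like background, Esr1 was number 10 from the lowest of the 157, at a median percentile of 29.2 against 48.5. Some of the 157 genes, such as the protocadherin alpha genes, overlap each other and share their peaks. The medians, the share and the places given among the 157 count each of them. This group of genes was compared after the values were seen, and no test was made.

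The genes whose peak pattern was most like that of Esr1 were sought among the 1116 protein-coding genes with 5 or more peaks. Likeness was the distance over 5 standardised measures in this single library, namely span, number of peaks, highest and median fold enrichment and median background. Mylk was nearest, at a distance of 0.884, with 14 peaks, a median fold enrichment of 5.56 and a median background of 6.73. Syne2, a nuclear envelope protein gene, followed at 1.24, then Sema5a at 1.27, Svil at 1.38 and Igf1r, the insulin-like growth factor receptor gene, at 1.41. The median distance over all these genes was 4.02.

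No other gene span of the RefSeq table overlapped that of Esr1. Within 500 kb of either end lay 7 other protein-coding genes, 6 of them with a peak and together with 20 peaks. Ccdc170, on the same strand and ending 47.5 kb before Esr1, had 2 peaks of 5.65 (2.89 to 10.2) and 8.67 (5.17 to 13.8), from 9 and 16 fragments. Syne1, a nuclear envelope protein gene on the minus strand whose span begins 14.6 kb after Esr1, had 10 peaks. Its strongest had 12.5 (9.85 to 15.7) and a peak near the end facing Esr1 11.03 (8.29 to 14.4). Further away, Akap12, a kinase anchor gene, reached 24.98 (20.3 to 30.4), the highest value in the region and above the interval of every Esr1 peak. Zbtb2, a zinc finger gene, Rmnd1, a mitochondrial translation gene, and Armt1, a phosphatase gene, had 1, 2 and 1 peaks, with up to 10.2, 8.94 and 7.69. Mthfd1l, a mitochondrial folate enzyme gene, had none. Per 100 kb of span, Esr1 had 4.06 peaks, fewer than Rmnd1 with 6.84, Zbtb2 with 4.75 and Akap12 with 4.29. Armt1 had 3.87, Ccdc170 2.44 and Syne1 1.89.

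**Figure D4:**
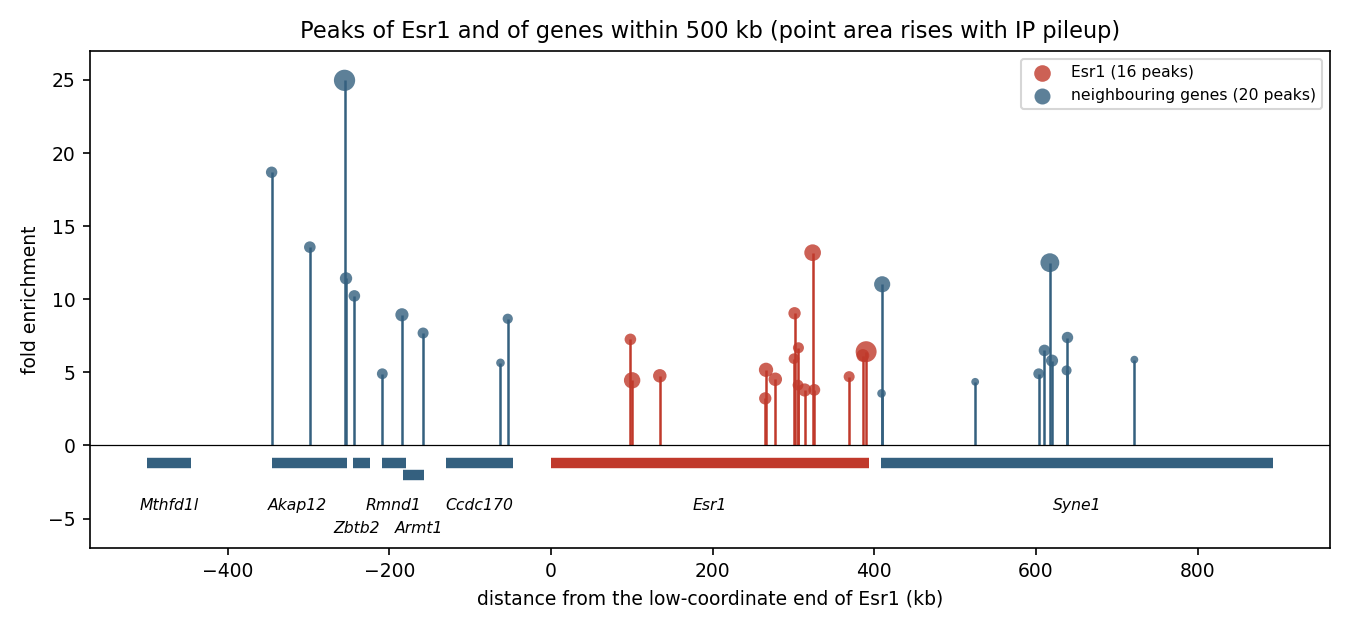
Fold enrichment of the peaks of Esr1 (red) and of genes within 500 kb (blue) against the distance from the low-coordinate end of Esr1 in kb; the point area rises with the IP pileup, and bars below show protein-coding gene spans. The nearest peaks of other genes stand at -53.5 kb and 15.25 kb from the ends of Esr1, and the region's highest value, 24.98, is in Akap12.

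Among the steroid receptor genes reported here, Esr1 had the most peaks, counted without regard to span. Of these 9 genes, Esr1 included, 4 had a peak, close to the 44.8% of all protein-coding genes. Pgr, the progesterone receptor gene, had 4 peaks with fold enrichments of 13.8, 7.86, 3.14 and 3.87 in order of position, and an interval of the strongest of 10.6 to 17.5, which overlaps that of Esr1 at 13.2 (10.02 to 17.1). Esr1 and Pgr thus had strongest peaks of like enrichment and like depth, 56 fragments over 3.32 and 63 over 3.65. Nr3c2, the mineralocorticoid receptor gene, and Nr3c1, the glucocorticoid receptor gene, had 2 peaks each, with up to 10.2 (6.50 to 15.4) and 8.67 (6.59 to 11.2). The spans differ, at 393.645 kb for Esr1, 346.93 kb for Nr3c2, 108.877 kb for Nr3c1 and 69.712 kb for Pgr. The second oestrogen receptor gene Esr2, the orphan receptor genes Esrra, Esrrb and Esrrg and the membrane receptor gene Gper1 had no peak. How deeply a gene with no peak was covered was not analysed here.

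The median of the strongest peak per gene, over the 4 receptor genes with one, was 11.7, with Esr1 among them. Over the 9822 protein-coding genes that had any, it was 9.36. With each gene's median peak in its place, the receptor genes stood at 6.24 and all genes at 7.43. The receptor genes had a median of 3 peaks and all genes one of 2, and the part of peak number in the highest value was not tested.

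The coregulator list, which also holds the pioneer factor genes Foxa1 and Gata3, had peaks in 16 of 18 cases (44.8% of all protein-coding genes). Its genes with a peak had a median strongest peak of 15.5, against 9.36 over all genes with a peak. With each gene's median peak they stood at 7.235, against 7.43. The coactivator genes Ncoa2, at 27.7 (22.5 to 33.8), and Ncoa6, at 22.8 (17.8 to 28.7), and the mediator subunit gene Med1, at 23.0 (18.7 to 28.0), had intervals wholly above that of the strongest Esr1 peak. Crebbp, an acetyltransferase gene, came near Esr1 in number with 15 peaks, and its strongest had 16.3 (13.4 to 19.7). Ncoa1, Ncoa3, Ncor1 and Trim24 ranged from 14.8 to 10.6, with intervals that overlap that of Esr1. The helicase gene Ddx5 reached 6.00 (4.87 to 7.32) over a background of 14.99, and the related Ddx17 reached 6.59 (5.19 to 8.25) over 10.4. Carm1, an arginine methyltransferase gene, had 4.98 (3.32 to 7.21) and Phb2, a prohibitin gene, 3.68 (2.45 to 5.32). The pioneer factor genes Foxa1 and Gata3 had no peak.

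All 8 chaperone genes had a peak, against 44.8% of all protein-coding genes, with a median strongest value of 6.84, against 9.36. The genes of both cytosolic forms of heat shock protein 90 had several, Hsp90aa1 5 peaks with up to 11.7 (9.26 to 14.6) and Hsp90ab1 6 with up to 10.4 (8.76 to 12.2). Esr1, with a median background of 4.81, lay below both, which had 5.19 and 11.8. Fkbp5, an immunophilin gene, had the highest value of the list, 14.1 (8.74 to 21.6), from 19 fragments, and the related Fkbp4 had 5.15 (3.16 to 7.98).

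Genes that respond to oestrogen had peaks in 11 of 20 cases, near the 44.8% of all protein-coding genes. Their median strongest value was 10.3, against 9.36 over all genes with a peak, but with each gene's median peak it was 6.82, against 7.43. Myc, a growth regulator, had 14.2 (11.8 to 17.0), Inhbb, an activin subunit gene, 13.5 (10.3 to 17.3), and Igf1, the growth factor gene induced in stroma, 10.8 (7.72 to 14.7). Greb1, a cofactor and target of the receptor, had 10.3 (7.40 to 13.99), and C3, a complement gene, had 8 peaks with up to 6.35 (4.62 to 8.53). Wnt7a and Fos rested on 5 fragments each. Ltf, Muc1, Lif and the water channel gene Aqp8 were among the 9 without a peak, whereas Aqp5 had 10.3 (6.63 to 15.4).

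Genes that make or inactivate oestrogens had peaks in 2 of 8 cases, against 44.8% of all protein-coding genes. These were Hsd17b4 at 10.2 (6.50 to 15.4) and Cyp1b1 at 7.65 (4.41 to 12.5), with 1 peak each. Cyp19a1, the aromatase gene, Hsd17b1, Hsd17b2 and the sulfotransferase gene Sult1e1 had none.

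**Figure D5:**
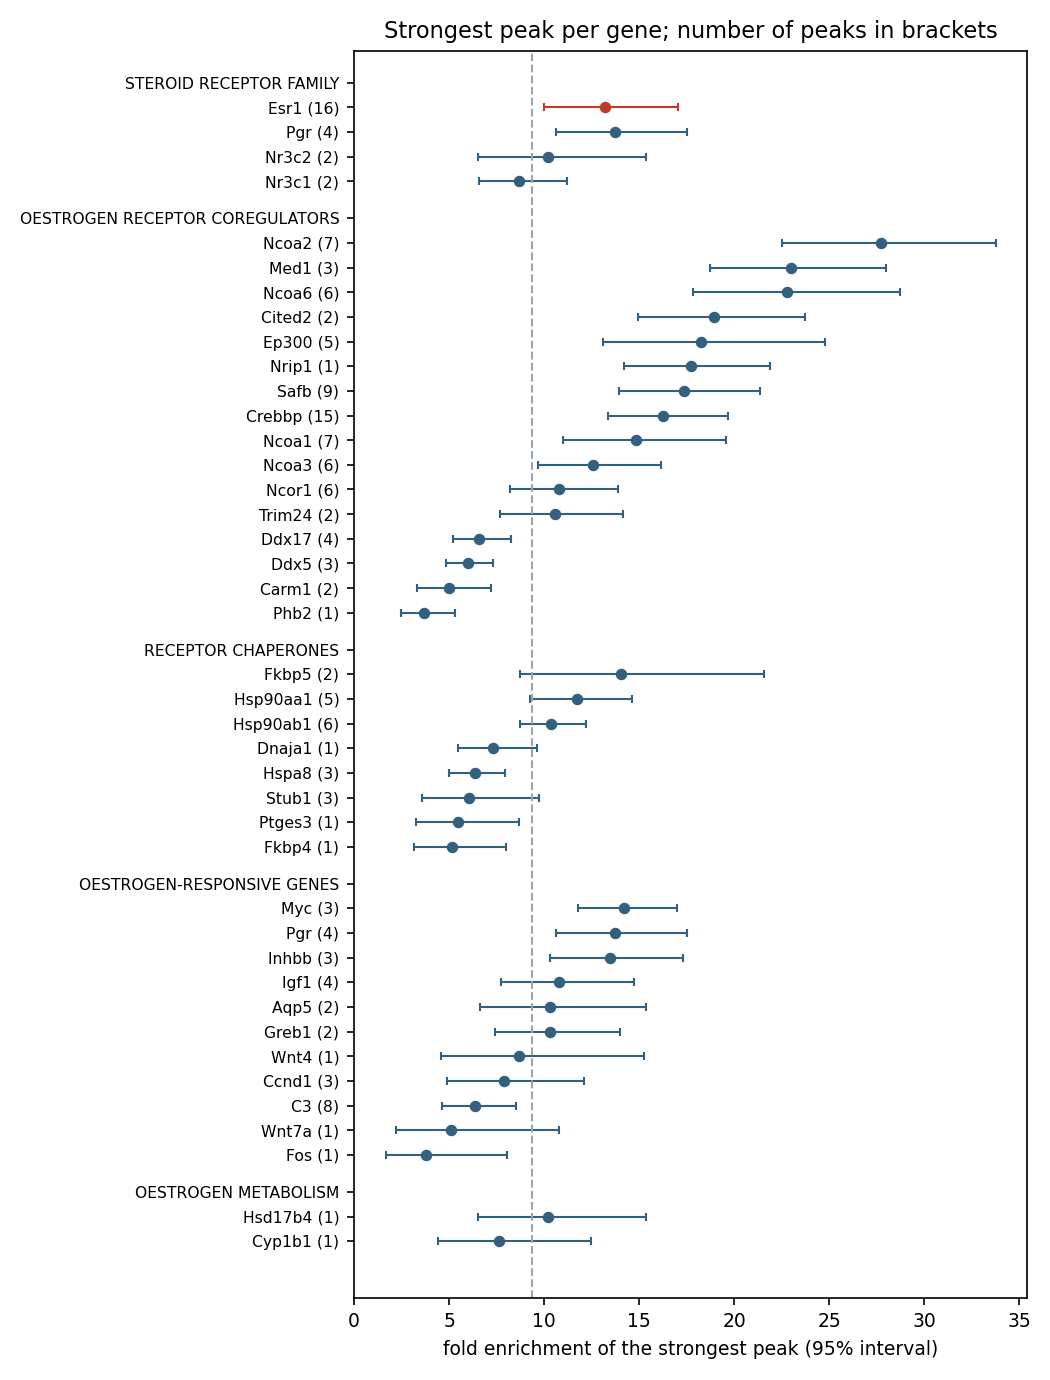
Fold enrichment of the strongest peak (point, bar is the 95% interval) of each list member with a peak, by list, with Esr1 in red and the number of peaks in brackets; the dashed line is the median over protein-coding genes with a peak, 9.36. Esr1, at 13.2 with 16 peaks, lies below Ncoa2 at 27.7 and near Pgr at 13.8.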

How the data were processed

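The data are the peak list of the IP sample, 1 library, with 1 input sample that has no file here. Per the submitters' processing notes, the build was mm10 and the tools include MACS3 3.0.0a7 and HISAT2 2.2.1. Neither options nor pooling is given in those notes. The fold enrichment deposited per peak is a ratio, beside a −log10 p-value and a −log10 q-value from the same deposited list. The deposited score is 10 times −log10 q, and positions are in the authors' list. The pileup and background were solved from that ratio and p-value. Whole pileups, to within 0.05, were found for all 26584 peaks, although 80 also matched a second whole pileup, none of them in Esr1. The solver recovered 100% of 2000 simulated peaks made with its own formula.

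A peak belonged to every gene whose span, in a RefSeq table of 49997 genes, held its summit. Starts, strands and sequences are from the RefSeq start windows. The gene, the lists and the comparisons were chosen with earlier results of these data known. Named genes are Esr1, members of the pathway and marker lists, genes within 500 kb, the 5 most like it and the 5 on either side of it in number of peaks at like span. Sts, in the list of oestrogen metabolism, was not matched, and 3 genes of the lists in the design are not reported here and were left out of the list counts and medians. No test across samples was possible. DRACH motifs and exons, in the design, were not analysed for want of a genome. Alternatives were stricter peaks, other overlaps, merged peaks, no pseudocount and other span limits. Scripts ran on matplotlib 3.10.9, scipy 1.17.1, pandas 2.3.3, numpy 2.4.6 and Python 3.11.15.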

Additional observations from a re-analysis of the deposited data

How the results depend on the processing

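The number of Esr1 peaks was 16 with a −log10 q of at least 5, with a pileup of at least 10 and under both other overlaps, and 13 with a fold enrichment of at least 4 or with gaps under 500 bp merged. The strongest fold enrichment of 13.2 was 16.9 without the added 1, and the median of 4.97 ran from 4.97 to 5.94. The percentile of the Esr1 median among all peaks, 15.02, was 6.24 with a −log10 q of at least 5 and 6.865 without the added 1. It was 29.0 with a fold enrichment of at least 4, where the median of the 13 Esr1 peaks left was 5.94. Genes of like span with as many peaks or more, 9 in the report, numbered 2 with a −log10 q of at least 5, 18 with a fold enrichment of at least 4, 3 with a pileup of at least 10, 4 with peaks in exactly 1 gene and 4 with spans of 0.67 to 1.5 times. The comparison of genes with 10 or more peaks was chosen after seeing the data. There the Esr1 median fold enrichment was number 1 from the lowest of 157 genes. With a fold enrichment of at least 4 it was number 14 of 143. That limit removes the lowest peaks of Esr1 and of the other genes. Taking each gene's median peak in place of its strongest, the coregulators stood at 7.235, the responsive genes at 6.82 and the receptor genes at 6.24. The causes were not tested. No paired analysis was possible because the IP sample has the only file. Depth limits the 4 Esr1 peaks of 18 to 20 fragments, whose upper bounds are over 1.5 times their fold enrichments.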
